A study of Mus musculus with 2 samples.

Results

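The Ms4a genes encode a family of small membrane proteins that cross the membrane several times, and 6 of them were followed here in B cells of the mouse heart: Ms4a1, Ms4a4b, Ms4a4c, Ms4a6b, Ms4a6c and Ms4a6d. They are 6 of the 19 genes named Ms4a among the 31053 genes of the tables, and they were chosen from the levels and ties that earlier work on these libraries had shown. Their levels by age and their ties to B1 and interferon genes are therefore given as descriptions.

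Ms4a1 encodes CD20, the surface protein of mature B cells that therapeutic B cell-depleting antibodies bind, and it takes part in calcium signaling after the B cell receptor is engaged. Ms4a4b is best known from T cells, where its protein is found at the surface, and Ms4a4c and the Ms4a6 genes are known from myeloid cells and other leukocytes. B1 cells are B cells of early origin that secrete natural antibody and are recognized by transcripts such as Bhlhe41, Ctla4 and Cd9. Type I interferon raises a shared set of transcripts in most cells, among them Ifit3 and Isg15.

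Living myocardial B cells were sorted from wild-type C57BL6/J mice, and each age was sequenced as 1 droplet library, so no difference between the ages has a replicate check. The neonatal library came from 6 mice of 2 weeks (15 days in the sample's title) of both sexes and the adult library from 6 male mice of 8 weeks, and for each age 3 hearts were pooled in each of 2 tubes. Age, sex and library cannot be told apart in this design, and the individual mice cannot be told apart within a library. Each count is a unique molecular identifier (UMI), which marks 1 captured mRNA molecule.

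A droplet was taken as a B cell when it held at least 2000 gene UMIs, at most 10% mitochondrial UMIs, a UMI of Cd79a, the signaling chain of the B cell receptor, and no UMI of Lyz2, the lysozyme gene of myeloid cells. Of 2507 neonatal and 4120 adult droplets with at least 2000 UMIs, 2091 and 3615 met the mitochondrial limit, 2077 and 3611 of these held Cd79a, and the 32 and 15 with Lyz2 were set apart. This left 2045 neonatal B cells with a median of 5975 UMIs and 3596 adult B cells with a median of 6130 UMIs. The quartiles were 4952 and 8132 UMIs in neonatal and 4173 and 11120 UMIs in adult cells, so large cells were more frequent among the adult cells. Cd79b was seen in 99.7% and 99.4% of the cells and Cd74 in 99.8% and 100%. Of 10 monocyte and macrophage markers, 5 and 8 had at least 1 UMI and summed to 81.3 and 78.1 CPM, mostly Tyrobp. Among them Csf1r, the growth factor receptor of macrophages, had no UMI in either library, and Lyz2 had none by the selection. Of 10 T cell markers, 9 and 10 had at least 1 UMI and summed to 21.9 and 28.5 CPM. CPM is the number of UMIs of a gene per 1000000 UMIs of all genes in the same cells. Only 2 barcodes were shared between the B cells of both libraries.

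All 19 Ms4a genes lay in 678.6 kb of chromosome 19 in the mouse build GRCm38 (mm10). Ms4a1 spanned chr19:11249675-11266241 on the minus strand. The other members lay together in 200.1 kb that began 138.5 kb beyond Ms4a1: Ms4a4c at chr19:11404770-11427246, Ms4a4b at chr19:11443553-11467055, Ms4a6c at chr19:11469366-11482192 and Ms4a6b at chr19:11516512-11531256 on the plus strand, and Ms4a6d at chr19:11586604-11604849 on the minus strand. UMIs were counted over each gene's exons. Ms4a1 overlaps 4930526L06Rik and Ms4a6b overlaps Gm19261 on the opposite strand, and these antisense genes held 0 and at most 2 UMIs in the B cells.

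The members form pairs of near-copies, which matters for how far their UMIs can be told apart. Over the aligned coding sequence, Ms4a4b and Ms4a4c were identical at 91.8% of bases, Ms4a6b and Ms4a6c at 85.7%, Ms4a6b and Ms4a6d at 81.3% and Ms4a6c and Ms4a6d at 77.5%, whereas Ms4a1 was identical to the others at 58.5% to 61.8%. The first 90 coding bases of the GENCODE M21 transcripts show the likeness. Capitals mark the bases that differ from the first sequence of each family, 18 in Ms4a6b, 12 in Ms4a6d and 7 in Ms4a4b.
Ms4a6c: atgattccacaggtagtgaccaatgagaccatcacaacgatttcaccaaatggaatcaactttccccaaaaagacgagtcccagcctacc
Ms4a6b: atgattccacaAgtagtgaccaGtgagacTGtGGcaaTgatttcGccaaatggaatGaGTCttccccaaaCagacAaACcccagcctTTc
Ms4a6d: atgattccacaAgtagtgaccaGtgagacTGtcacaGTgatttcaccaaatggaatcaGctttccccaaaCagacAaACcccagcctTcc
Ms4a4c: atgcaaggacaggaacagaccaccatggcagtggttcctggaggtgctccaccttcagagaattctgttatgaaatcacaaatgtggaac
Ms4a4b: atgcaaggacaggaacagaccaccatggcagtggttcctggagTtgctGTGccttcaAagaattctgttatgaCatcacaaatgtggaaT
In the last 1000 transcript bases, where the 3′ reads fall, 6.62% of the 50-base words of Ms4a4b, 8.57% of Ms4a4c, 4.55% of Ms4a6b and 8.62% of Ms4a6c were also present in another Ms4a transcript, and none of Ms4a1 or Ms4a6d. Reads within those words could not be assigned to 1 gene, so part of the UMIs of these 4 genes may be uncounted.

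Ms4a1 was by far the most abundant member at both ages and was slightly lower in the adult library. It held 21692 UMIs or 1359 CPM (95% interval 1341 to 1377) in neonatal and 39669 UMIs or 1154 CPM (1142 to 1165) in adult cells, a log2 ratio of adult over neonatal of -0.24 (-0.26 to -0.21). The median over all 10639 genes with at least 50 UMIs was -0.12. Intervals are exact 95% limits for counting error and say nothing of the spread from mouse to mouse. A UMI marks 1 molecule whatever the transcript's length, so levels of different genes are set side by side without a correction for length.

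Ms4a4c was the next most abundant and was higher in the adult library. It held 168 CPM (162 to 175) in neonatal and 255 CPM (250 to 261) in adult cells, a log2 ratio of 0.60 (0.54 to 0.66). Ms4a4b held 24.8 CPM (22.4 to 27.4) and 30.6 CPM (28.8 to 32.5), a log2 ratio of 0.30 (0.13 to 0.47). At a mitochondrial limit of 5% the Ms4a4b ratio was -0.36. Ms4a6b held 17.8 CPM (15.8 to 19.99) and 26.1 CPM (24.4 to 27.8), a log2 ratio of 0.55 (0.36 to 0.75). These 3 members thus differed by less than 2-fold between the libraries.

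Ms4a6c differed most. It held 183 UMIs or 11.5 CPM (9.86 to 13.3) in neonatal and 1893 UMIs or 55.0 CPM (52.6 to 57.6) in adult cells, a 4.80-fold difference (4.12 to 5.62) that placed it 76th from the highest ratio among the 10639 genes. Of the 5 members with at least 50 UMIs, 1 was at least 2-fold higher in the adult library, beside 3.52% of all genes. The order of the levels changed with this: Ms4a6c stood below Ms4a6b and Ms4a4b in neonatal and above both in adult cells, and no neighbors in either order had overlapping intervals.

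Ms4a6d was at the limit of detection, with 3 UMIs in the neonatal and 9 in the adult B cells and a log2 ratio of 0.48 (-1.52 to 2.999). Of the 13 other Ms4a genes, Ms4a7 had 10 and 32 UMIs, Ms4a4a 4 and 15, Ms4a4d 1 and 4, Ms4a14 0 and 2, and Ms4a3 0 and 2. The remaining 8, among them Ms4a2, the beta chain of the mast cell IgE receptor, had none. The related genes Tmem176a and Tmem176b held 46 and 177 and 74 and 203 UMIs.

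**Figure D1:**
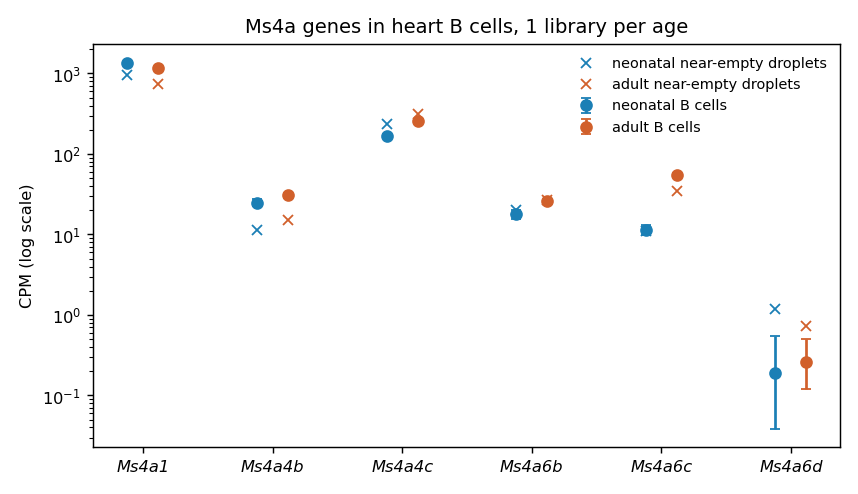
Level of each Ms4a gene in CPM on a log scale, with filled points for the B cells of each library, bars for exact 95% counting intervals and crosses for near-empty droplets. Ms4a1 lies above 1000 CPM at both ages, and Ms4a6c is the member whose points lie farthest apart, at 11.5 and 55.0 CPM.

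The share of cells with a UMI was compared after each cell had been thinned to 2000 UMIs, so that depth was equal. Ms4a1 was seen in 84.9% (83.3 to 86.5) of the cells at 2 weeks and in 82.1% (80.8 to 83.3) at 8 weeks. Ms4a4c was seen in 25.8% (23.9 to 27.8) and 39.0% (37.4 to 40.6). Ms4a4b was seen in 4.69% (3.82 to 5.70) and 4.48% (3.82 to 5.205), Ms4a6b in 3.52% (2.76 to 4.41) and 4.62% (3.95 to 5.35), and Ms4a6c in 2.49% (1.86 to 3.27) and 5.59% (4.86 to 6.39). Thus 3 of the 6 shares were higher in the adult library, and the intervals of the libraries were apart for Ms4a4c and Ms4a6c and met at 83.3% for Ms4a1. After thinning, 1 neonatal cell and 0 of 3596 adult cells still held Ms4a6d, and taking 3 counts as the limit of a count of 0 allows up to 0.0834% of adult cells with a UMI at that depth. As sequenced, 0.0978% of neonatal and 0.222% of adult cells held a Ms4a6d UMI.

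Near-empty droplets, those ranked 45000 to 90000 by UMIs, held on average 55.9 and 92.0 UMIs of free RNA. If each cell carried as much free RNA, it alone would give Ms4a1 in 1.74% and 2.25% of the thinned cells, Ms4a4c in 0.427% and 0.952% and each other member in at most 0.106%. The free RNA itself held 11.1 CPM of Ms4a6c in neonatal and 34.5 CPM in adult near-empty droplets. Without thinning, the shares were 97.6% and 95.6% for Ms4a1, 53.7% and 71.7% for Ms4a4c, 14.6% and 16.8% for Ms4a4b, 10.9% and 17.1% for Ms4a6b and 7.68% and 16.8% for Ms4a6c.

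The members differed in how their UMIs were spread over cells. The top 5% of cells held 20.3% and 25.1% of the Ms4a1 UMIs and 28.3% and 29.0% of the Ms4a4c UMIs. For Ms4a6c they held 70.5% and 72.6%, and the most in 1 cell was 5 UMIs in neonatal and 38 in adult cells. Since the neonatal Ms4a6c UMIs were few, a low count alone gives a high share in the top cells. A positive adult cell held on average 3.13 UMIs against 1.17 in a positive neonatal cell.

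The difference in Ms4a6c was greater in larger cells. Among cells with at least 10000 UMIs, 1036 adult cells held 79.3 CPM and 358 neonatal cells 11.2 CPM, a log2 ratio of 2.82 (2.47 to 3.19). Among cells of 5000 to under 10000 UMIs the levels were 24.5 and 12.4 CPM, a log2 ratio of 0.98 (0.61 to 1.35). Among cells of 2000 to under 5000 UMIs they were 10.5 and 8.98 CPM, a log2 ratio of 0.22 (-0.51 to 1.01). With each cell thinned to 2000 UMIs, so that all cells count alike, the level was 12.96 CPM in neonatal and 35.7 CPM in adult cells, a log2 ratio of 1.46. Without the droplets above 2 times the median depth of their library, where doublets could lie, it was 1.36.

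Ms4a1 showed the reverse order. Its log2 ratio was -1.17 (-1.23 to -1.11) among cells of 2000 to under 5000 UMIs, at 1884 CPM in neonatal and 839 CPM in adult cells, -0.13 (-0.17 to -0.09) among cells of 5000 to under 10000 UMIs and -0.02 (-0.05 to 0.02) in the largest cells. Ms4a4c was higher in the adult library in all 3 ranges, by 1.20 (1.02 to 1.38), 0.49 (0.40 to 0.58) and 0.86 (0.75 to 0.97) on the log2 scale. For Ms4a4b the ratios in the same ranges were -0.05 (-0.52 to 0.43), 0.03 (-0.26 to 0.31) and 0.58 (0.31 to 0.85). The part of cell size, cell state and capture in these differences was not tested.

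The cells were next divided into states, each cell going to the first it met: at least 2 UMIs of T cell receptor or CD3 genes, at least 2 UMIs of cell cycle genes, a UMI of Ifit3 or Isg15, a UMI of Bhlhe41, Ctla4 or Cd9, a UMI of Cr2 or Fcer2a (the CD21 and CD23 of follicular cells), a UMI of Vpreb3 (a gene of immature B cells), or none of these. The neonatal library had 630 Vpreb3 cells of 2045 and the adult library 406 of 3596, and the Cr2 or Fcer2a cells numbered 566 and 1634. These states are ranges of transcript content after thinning and not cell types.

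Ms4a1 was lower in the adult library in several states, with the widest gap in Vpreb3 cells. Neonatal Vpreb3 cells held 1933 CPM of Ms4a1 (1890 to 1977) and adult Vpreb3 cells 1160 CPM (1121 to 1200), a log2 ratio of -0.74 (-0.80 to -0.68). In the Cr2 or Fcer2a cells the levels were 1104 and 1083 CPM, a log2 ratio of -0.03 (-0.08 to 0.02), and in cells of no state they were 1158 and 1135 CPM. Ms4a1 was also lower in adult interferon gene cells, at -0.40 (-0.56 to -0.24), and in B1 gene cells, at -0.11 (-0.18 to -0.05), and higher in the few cycling cells, at 0.45 (0.28 to 0.62). The neonatal Vpreb3 cells thus held more Ms4a1 than any other state with over 100 cells in either library.

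Ms4a6c followed another pattern. The B1 gene state held 15.7 CPM in the neonatal (10.8 to 22.0) and 126 CPM in the adult library (116 to 136), a log2 ratio of 2.999 (2.49 to 3.55). Cells of no state held 12.2 and 70.0 CPM, a log2 ratio of 2.53 (2.15 to 2.92). Cr2 or Fcer2a cells held 12.9 and 24.0 CPM, a log2 ratio of 0.89 (0.46 to 1.35), and Vpreb3 cells 8.08 and 13.6 CPM, a log2 ratio of 0.75 (0.04 to 1.47). The neonatal states thus lay close together and the adult states spread apart. The adult B1 gene cells were also the deeper ones, with a median of 12214 UMIs against 5277 in the Cr2 or Fcer2a cells.

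Ms4a4c was higher in the adult library in each of these states, with log2 ratios of 0.87 (0.72 to 1.03) in Vpreb3 cells, 0.30 (0.19 to 0.42) in Cr2 or Fcer2a cells, 0.52 (0.30 to 0.74) in B1 gene cells and 0.53 (0.17 to 0.90) in interferon gene cells. Among states with at least 20 cells it was lowest in the B1 gene cells and highest in the interferon gene cells of both libraries. Ms4a4b was lower in adult Cr2 or Fcer2a cells, at -0.49 (-0.78 to -0.20). It was higher in the few adult cells with T cell genes, at 1.26 (0.72 to 1.84), and cycling cells, at 1.92 (0.36 to 3.91). In the other B cell states the interval of the Ms4a4b ratio held 0.

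**Figure D2:**
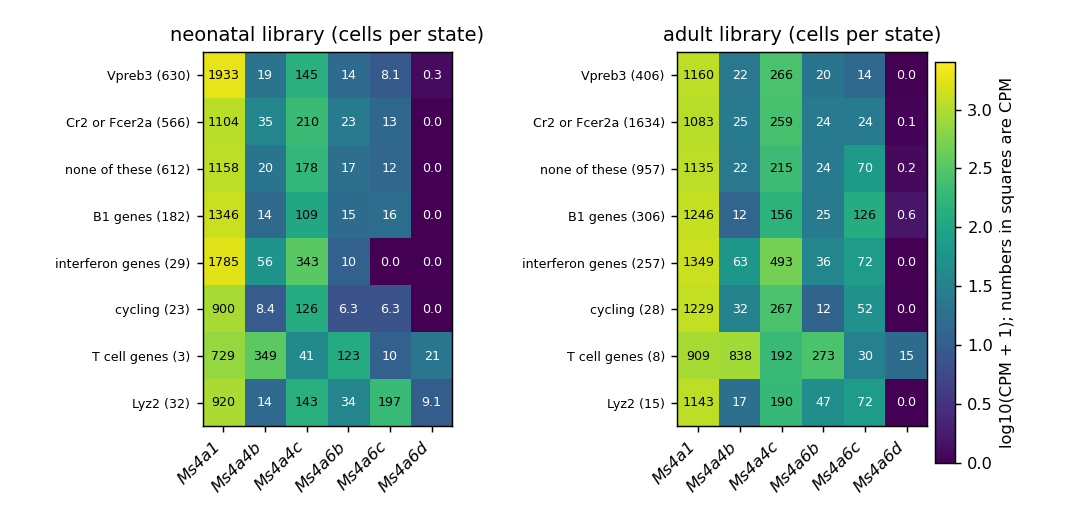
Level of each member in CPM (number in each square, color on a log10 scale) by cell state, with neonatal cells on the left and adult cells on the right and the number of cells in brackets, and with the droplets that held Lyz2 in the last row. For Ms4a6c the neonatal droplets with Lyz2 are highest at 197 CPM, and among the B cell states the adult B1 gene row stands out at 126 CPM. The interferon gene rows stand out for Ms4a4c, and the few droplets with T cell genes for Ms4a4b and Ms4a6b.

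**Figure D3:**
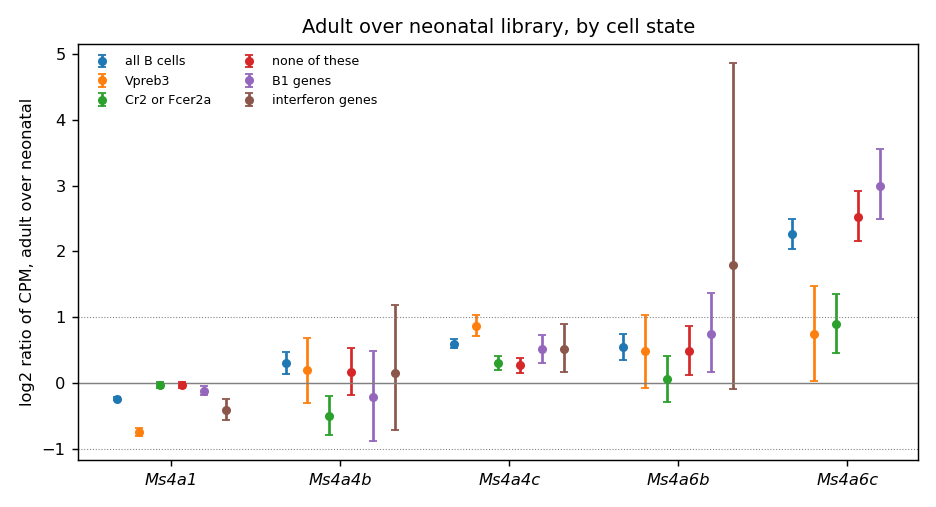
Log2 ratio of the level in the adult over the neonatal library for 5 members, for all B cells and by state, with bars for 95% counting intervals and dotted lines at a 2-fold difference. Ms4a6c reaches 2.999 in B1 gene cells but 0.75 in Vpreb3 cells, and Ms4a1 lies lowest in Vpreb3 cells. The Ms4a6c point of the interferon gene cells is left out because the neonatal cells held 0 UMIs.

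For the tie to B1 genes, cells with a UMI of Bhlhe41, Ctla4 or Cd9 after thinning were set against the other cells, 193 against 1852 in neonatal and 344 against 3252 in adult cells. Bhlhe41 is a transcription factor needed for B1a cells, Ctla4 an inhibitory receptor and Cd9 a tetraspanin of the cell surface. Adult cells with a B1 gene held 123 CPM of Ms4a6c and the others 41.8 CPM, a log2 ratio of 1.56 (1.42 to 1.70). This was the 59th highest ratio of 10139 genes, and Ms4a6c was the only 1 of the 5 members with enough UMIs that was at least 2-fold higher, beside 1.98% of all genes. In the neonatal library the levels were 14.4 and 11.0 CPM, a log2 ratio of 0.39 (-0.19 to 0.94), and 0 members were 2-fold higher, beside 2.47% of all genes.

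The adult Ms4a6c level was higher in cells with 2 or more B1 transcripts than in cells with 1 or none. Ms4a6c held 41.8 CPM in the 3252 cells with none, 94.5 CPM (85.7 to 104) in 275 cells with 1, 275 CPM (236 to 318) in 46 cells with 2 and 204 CPM (162 to 253) in 23 cells with 3 or more. Taken alone, Ctla4 gave the widest gap, with 206 CPM in 101 cells with a Ctla4 UMI and 47.5 CPM in the others, a log2 ratio of 2.12 (1.94 to 2.29). Bhlhe41 gave 92.7 against 53.2 CPM and Cd9 101 against 50.8 CPM. In the neonatal library the corresponding pairs were 17.7 against 11.3 CPM for Ctla4, 15.6 against 11.1 CPM for Bhlhe41 and 15.0 against 11.2 CPM for Cd9, each with an interval that held 0 on the log2 scale.

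Depth differed between these groups, at a median of 12434 UMIs in adult cells with a B1 gene and 5610 UMIs in the others. Within 5000 to under 10000 UMIs the adult tie was 67.5 against 19.99 CPM, a log2 ratio of 1.76 (1.26 to 2.23), and above that it was 135 against 62.8 CPM, a log2 ratio of 1.11 (0.96 to 1.25). Within 2000 to under 5000 UMIs only 34 adult cells held a B1 gene and they gave 2 Ms4a6c UMIs, a log2 ratio of 0.49 (-2.59 to 2.41).

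Other cell types were measured in the same cells. T cell markers summed to 61.8 CPM in the adult cells with a B1 gene and 22.0 CPM in the others, with 9 and 10 of 10 markers detected, and to 23.7 and 21.5 CPM in the neonatal library. Lck gave 113 of the 345 T cell UMIs of the adult B1 gene cells. The 4 plasma cell markers summed to 697 CPM in neonatal cells with a B1 gene and to 49.8 CPM in the others, and Jchain, the chain that joins the units of IgM and IgA, gave 1327 of the 1649 UMIs in the former. The part of plasma cell genes in the B1 gene results was not tested. In the adult library the plasma cell markers summed to 236 and 168 CPM. The 10 monocyte and macrophage markers summed to 114 and 71.2 CPM in adult and 74.9 and 82.4 CPM in neonatal cells, mostly Tyrobp. Csf1r was at 0 in all 4 groups, and Lyz2 was at 0 only because droplets with Lyz2 had been set apart. When droplets with a UMI of Cd3d, Cd3e, Cd3g, Nkg7, Csf1r, C1qa or C1qb were left out, the adult log2 ratio of Ms4a6c was 1.64. That filter does not use Lck, Trac, Trbc1, Trbc2 or Tyrobp, so the part of other cell types in the tie was not tested.

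Seen from the other side, the 201 adult cells with a Ms4a6c UMI after thinning were set against the 3395 others at equal depth. The 8 B1 genes summed to 1363 CPM in them and 423 CPM in the others, a log2 ratio of 1.69 (1.55 to 1.82). Of the 6 B1 genes with at least 50 UMIs, 5 were at least 2-fold higher, beside 2.24% of all genes: Ctla4 at 127 against 12.8 CPM, S100a6, a calcium-binding protein, at 1070 against 344 CPM, Bhlhe41 at 42.3 against 12.7 CPM, Fcrl5, a receptor for immunoglobulin, at 34.8 against 11.6 CPM, and Zbtb32, a transcriptional repressor, at 27.4 against 11.0 CPM. Cd9 was higher by less than 2-fold. Bhlhe41, Ctla4 and Cd9 belong to the choice of the members, so the sum and the count of 5 were partly set in advance. Fcrl5, S100a6 and Zbtb32 do not belong to it, though the list was chosen with earlier results of these data known. The 6 follicular genes were all lower, with Ighd at 443 against 843 CPM and Fcer2a, which encodes CD23, at 169 against 329 CPM. Of the 6 transitional genes 4 were higher and 2 at least 2-fold lower, Vpreb3 at 99.5 against 234 CPM and Sox4 at 4.98 against 12.7 CPM, and the list as a whole had a log2 ratio of -0.02 (-0.11 to 0.07). T cell markers in the same cells summed to 34.8 against 16.8 CPM, a log2 ratio of 1.05 (0.14 to 1.86), and monocyte and macrophage markers to 102 against 62.7 CPM, a log2 ratio of 0.70 (0.20 to 1.17), and their part in the B1 gene result was not tested. These Ms4a6c cells had a median of 12179 UMIs as sequenced and the others 5839. In the 51 neonatal cells with a Ms4a6c UMI the 8 B1 genes summed to 431 against 374 CPM, a log2 ratio of 0.21 (-0.26 to 0.64).

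No other member with at least 50 UMIs was 2-fold higher in cells with a B1 gene. Ms4a6d, with 3 neonatal and 9 adult UMIs in all, was too sparse to judge. Ms4a4c was lower in cells with a B1 gene at both ages, at 99.0 against 180 CPM in neonatal and 165 against 273 CPM in adult cells, log2 ratios of -0.87 (-1.07 to -0.67) and -0.72 (-0.82 to -0.62). In adult cells with 3 or more B1 UMIs it was down to 37.3 CPM (20.9 to 61.4). Within each range of depth the ratios stayed between -0.54 and -0.75. Ms4a6b gave log2 ratios of -0.40 (-0.97 to 0.12) and 0.03 (-0.24 to 0.28). Seen from Ms4a6b, however, the 166 adult cells with a Ms4a6b UMI held 663 CPM of the B1 genes and the others 467 CPM, a log2 ratio of 0.51 (0.30 to 0.70), and in these cells T cell markers summed to 90.4 against 14.3 CPM. In the 72 neonatal cells with a Ms4a6b UMI the log2 ratio of the B1 genes was -0.60 (-1.12 to -0.13). Between cells with and without a B1 gene, Ms4a1 gave -0.095 (-0.15 to -0.04) in neonatal and 0.13 (0.09 to 0.16) in adult cells. The neonatal Ms4a1 value turned with the marker, at 0.18 (0.11 to 0.25) for Bhlhe41, -0.78 (-0.94 to -0.62) for Ctla4 and -0.22 (-0.30 to -0.14) for Cd9.

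The direction of Ms4a4b in this comparison was not stable. It held 12.7 CPM in neonatal cells with a B1 gene and 26.9 CPM in the others, a log2 ratio of -1.08 (-1.67 to -0.55), but 28.8 and 30.9 CPM in the adult library, a log2 ratio of -0.10 (-0.35 to 0.14). The adult value rested on few droplets: 1 cell held 51 Ms4a4b UMIs, and without that cell the ratio was -0.63. Without the droplets with a UMI of Cd3d, Cd3e, Cd3g, Nkg7, Csf1r, C1qa or C1qb it was -1.01. Droplets with only other T cell or myeloid markers stayed in. With the UMIs thinned it was -1.14 in adult and 0.14 in neonatal cells, and within 5000 to under 10000 UMIs it was -1.86 in adult and 0.19 in neonatal cells. With Cd9 left out, so that only Bhlhe41 or Ctla4 split the cells, the adult ratio was 0.53.

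For the tie to interferon genes, 29 neonatal cells with a UMI of Ifit3 or Isg15 were set against 2016 others, and 264 adult cells against 3332. Ifit3 itself held 56 UMIs in the neonatal and 2184 in the adult B cells, and Isg15 held 133 and 1824. Ms4a4c held 343 against 166 CPM in the neonatal library, a log2 ratio of 1.04 (0.67 to 1.39), and 484 against 229 CPM in the adult library, a log2 ratio of 1.08 (1.001 to 1.15). Ms4a4b held 56.3 against 24.4 CPM, a log2 ratio of 1.20 (0.19 to 2.06), and 77.3 against 25.3 CPM, a log2 ratio of 1.61 (1.40 to 1.81). These 2 of the 5 members were at least 2-fold higher in both libraries, beside 6.21% of all genes in neonatal and 2.37% in adult cells. In the neonatal library Ms4a4b rested on 11 UMIs in the 29 cells, and the neonatal count of members was 0 or 1 under 7 other choices of droplets or UMIs.

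The adult levels of Ms4a4c and Ms4a4b were higher in cells with 2 or more interferon transcripts than in cells with 1 or none. Ms4a4c held 229 CPM in cells with none, 250.9 CPM in 158 cells with 1, 614 CPM (550 to 684) in 31 cells with 2 and 985 CPM (919 to 1055) in 75 cells with 3 or more. Ms4a4b held 25.3, 33.7, 169 (136 to 208) and 127 CPM (104 to 153) in the same cells. After thinning, 5 of the 31 cells with 2 and 19 of the 75 cells with 3 or more held a Ms4a4b UMI. With the T cell and cycling states set apart, 257 adult interferon gene cells remained and held 62.7 CPM of Ms4a4b (54.4 to 71.8). In adult cells a single UMI of Ifit3 or Isg15 was accompanied by a level close to that of cells without. In the neonatal library, where 24 of the 29 cells held a single UMI, these held 273 CPM of Ms4a4c (198 to 366) against 166 CPM (160 to 173) in cells with none.

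Ms4a6b and Ms4a6c did not reach a 2-fold difference with the interferon genes, and how far they differ from Ms4a4b and Ms4a4c in this was not tested. Adult Ms4a6b held 41.5 against 24.3 CPM, a log2 ratio of 0.77 (0.50 to 1.03), and adult Ms4a6c 71.5 against 53.2 CPM, a log2 ratio of 0.43 (0.23 to 0.62), which was 0.05 (-0.76 to 0.77) within 5000 to under 10000 UMIs and 0.17 (-0.04 to 0.37) in the larger cells. The 29 neonatal interferon gene cells held 2 Ms4a6b UMIs and 0 Ms4a6c UMIs, for which the upper 95% limit of the exact interval is 18.9 CPM. Ms4a6b held 86.5 CPM (63.5 to 115), from 47 UMIs, in the 31 adult cells with 2 interferon UMIs. In the 75 adult cells with 3 or more it held 41.5 CPM (28.9 to 57.8). With cells split at 2 UMIs its log2 ratio was 1.26. Ms4a1 was higher by 0.40 (0.24 to 0.55) and 0.26 (0.21 to 0.30) on the log2 scale.

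The tie of Ms4a4c and Ms4a4b was present with the B1 gene cells left out, with adult log2 ratios of 1.10 (1.01 to 1.18) and 1.78 (1.56 to 1.99). In the adult library it was present in every range of depth for both genes, from 0.88 to 1.62 for Ms4a4c and from 1.33 to 2.24 for Ms4a4b. The median depth was 9923 UMIs in adult cells with an interferon gene and 5828 UMIs in the others. T cell markers summed to 36.1 and 27.6 CPM and the monocyte and macrophage markers to 85.8 and 77.2 CPM in these groups. Csf1r was at 0, and Lyz2 was at 0 by the selection of the cells.

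**Figure D4:**
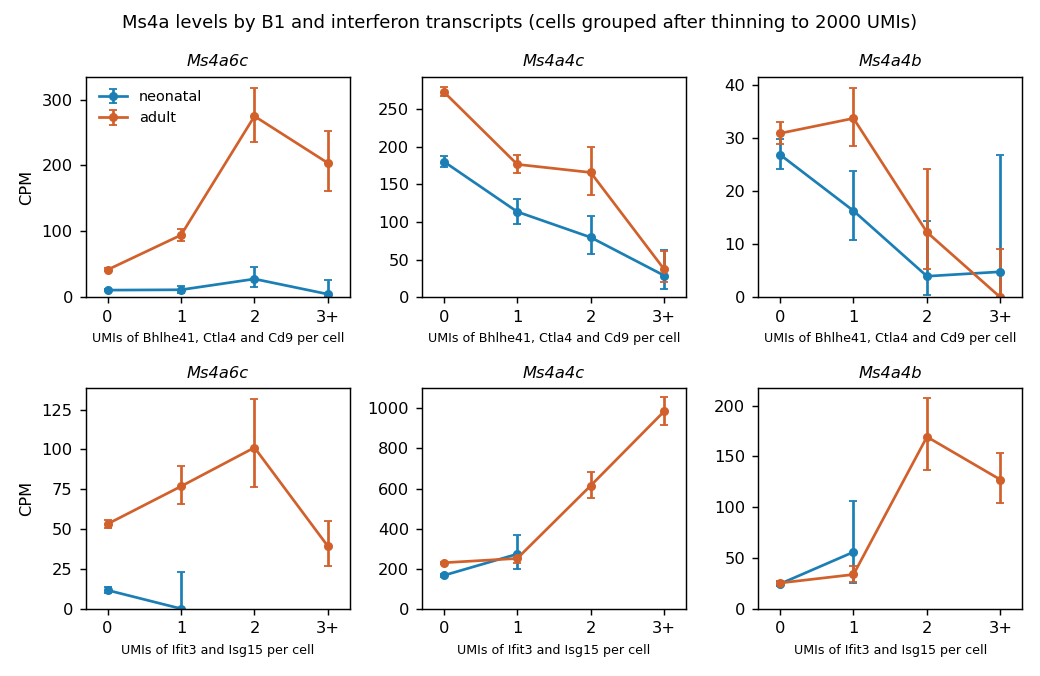
Level of Ms4a6c, Ms4a4c and Ms4a4b in CPM by the number of UMIs of the B1 genes (upper row) and of the interferon genes (lower row) in cells thinned to 2000 UMIs, for groups of at least 10 cells, with bars for 95% counting intervals. Adult Ms4a6c is higher with B1 transcripts, reaching 275 CPM, adult Ms4a4c is higher with interferon transcripts, reaching 985 CPM, and Ms4a4c is lower with B1 transcripts at both ages.

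Seen from the other side, the 1402 adult cells with a Ms4a4c UMI after thinning were compared with the other 2194 cells for the interferon response genes. All 15 interferon response genes with at least 50 UMIs were higher in the Ms4a4c cells, and 10 were at least 2-fold higher, beside 0.301% of all genes. Besides Ifit3 and Isg15, which belong to the choice of the members, these included Ifit1, an RNA-binding protein, at 41.0 against 9.57 CPM. Usp18, which removes ISG15 from proteins, was at 30.0 against 6.84 CPM, and Rsad2, the antiviral enzyme viperin, at 23.5 against 5.70 CPM. Irf7, a transcription factor of interferon genes, was at 53.9 against 24.8 CPM, and Slfn5 at 109 against 31.9 CPM. These genes belong to the same response as Ifit3 and Isg15, and the list was chosen with earlier results of these data known. They are therefore no independent check of the tie. Ifi27l2a, at 637 against 518 CPM, differed by less. The 161 adult cells with a Ms4a4b UMI had 12 of the 15 genes at least 2-fold higher, beside 2.62% of all genes, with a median log2 ratio of 2.25. In the same Ms4a4b cells T cell markers summed to 118 against 13.1 CPM, a log2 ratio of 3.17 (2.58 to 3.73), and NK cell markers to 34.2 against 2.62 CPM, and their part in the interferon gene result was not tested. The 201 Ms4a6c cells had 10 of 15 higher, 1 of them at least 2-fold, beside 2.24% of all genes. They had 2 of 15 at least 2-fold lower, and the median log2 ratio was 0.20. Summed over the 16 genes of the list, the log2 ratio was 0.71 (0.65 to 0.77) for adult and 0.48 (0.37 to 0.58) for neonatal Ms4a4c cells. For adult Ms4a4b cells it was 1.32 (1.22 to 1.43). In the 96 neonatal Ms4a4b cells it was 0.16 (-0.07 to 0.38), and T cell markers there summed to 93.8 against 10.0 CPM.

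Of the 15 interferon response genes, 11 were at least 2-fold higher in the adult than in the neonatal library, beside 3.52% of all genes. The median log2 ratio of the 15 was 2.01. Ifit3 and Isg15, which belong to the choice of the members, were among the 11. The few interferon gene cells of the neonatal library limit what can be said there. Ms4a4c lay below most of the 15 interferon response genes, at 0.60. The genes that share the cell surface with CD20 had a median of 0.19 over 12 genes. Of these 1, Cr2, was at least 2-fold higher at 27.5 and 121 CPM, beside the same share of all genes. Of the 5 factors known from the Ms4a1 promoter, 1, Irf4, was at least 2-fold lower in the adult library, beside 3.31% of all genes. It held 192 and 68.0 CPM, a log2 ratio of -1.50 (-1.58 to -1.42). Foxo1 and Spi1 were lower by less, at -0.47 (-0.55 to -0.40) and -0.35 (-0.45 to -0.26). Pou2f2 (458 and 473 CPM) and its coactivator Pou2af1 (221 and 213 CPM) lay close together. Of the 8 B1 genes, Fcrl5 (7.77 and 21.6 CPM) and Itgam, which encodes CD11b (3.07 and 8.43 CPM), were at least 2-fold higher in the adult library. All genes had a share of 3.52% at that fold. Ctla4 (20.7 and 36.8 CPM) and Cd9 (41.2 and 44.9 CPM) were higher by less. Bhlhe41 (35.1 and 23.0 CPM), Cd5 (5.14 and 2.79 CPM), Zbtb32 (24.4 and 19.5 CPM) and S100a6 (699 and 642 CPM) were lower. The median log2 ratio of the B1 genes was 0.001.

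Members of a pair were seen in the same cells with different frequency. Ms4a4b and Ms4a4c were found together in 34 neonatal cells where independent detection would give 24.8, and in 85 adult cells where it would give 62.8. Ms4a6b and Ms4a6c were found together in 6 neonatal cells against 1.80 and in 14 adult cells against 9.28. An excess was not confined to near-copies. Ms4a4b and Ms4a6b, which are not near-copies, were found together in 5 neonatal cells against 3.38 and in 12 adult cells against 7.43. These counts carry no interval. Ms4a4c and Ms4a6c were found together in 14 neonatal cells against 13.2 but in 57 adult cells against 78.4. Among adult cells with Ms4a4c, 4.07% also held Ms4a6c, and among those without, 6.56% did.

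Levels were also compared over the 13 profiles of library and state with at least 20 cells. These include the 32 neonatal droplets with Lyz2, which held the highest level of Ms4a6c, at 197 CPM. The Pearson correlation of the log2(CPM + 10) levels of Ms4a4b and Ms4a4c was 0.90, and that of Ms4a6b and Ms4a6c 0.71. The genes most like Ms4a4c among 8832 were Ifi213 (0.94), Ifi208 (0.92) and Ifi206 (0.92), members of an interferon-inducible gene family, and those most like Ms4a4b were Zufsp (0.93), Ifi209 (0.93) and Ifi214 (0.93). Ms4a1 was most like Ly6d (0.92), a gene of early B lineage cells, Cobll1 (0.90) and Cog2 (0.88). Ms4a6c was most like Plbd1 (0.92), Rab11fip1 (0.91) and Id2 (0.91), an inhibitor of E proteins, and Ms4a6b most like Fam120b (0.94), Cfap97 (0.90) and Ttc28 (0.89). The states were split by the interferon and B1 genes that entered the choice of the members. Likeness among genes that follow these was therefore partly set in advance. The profiles of a library also share its depth and free RNA, so these values describe the 13 profiles only.

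Since levels of Ms4a4b and Ms4a4c went with those of interferon genes, the promoters of the 4 members found in the table were read from RefSeq (build GRCm38.p6), from 250 bases before to 50 bases after the start. All windows lie on the plus strand of chromosome 19: chr19:11407411-11407710 for Ms4a4c, chr19:11443308-11443607 for Ms4a4b, chr19:11469118-11469417 for Ms4a6c and chr19:11518309-11518608 for Ms4a6b. Capitals mark GAAANNGAA, the core of the interferon-stimulated response element, searched on both strands.
Ms4a4c: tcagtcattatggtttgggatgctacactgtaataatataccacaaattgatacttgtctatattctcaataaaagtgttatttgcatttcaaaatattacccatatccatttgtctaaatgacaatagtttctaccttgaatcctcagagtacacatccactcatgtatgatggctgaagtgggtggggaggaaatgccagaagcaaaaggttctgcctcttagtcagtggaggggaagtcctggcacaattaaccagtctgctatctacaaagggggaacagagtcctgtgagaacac
Ms4a4b: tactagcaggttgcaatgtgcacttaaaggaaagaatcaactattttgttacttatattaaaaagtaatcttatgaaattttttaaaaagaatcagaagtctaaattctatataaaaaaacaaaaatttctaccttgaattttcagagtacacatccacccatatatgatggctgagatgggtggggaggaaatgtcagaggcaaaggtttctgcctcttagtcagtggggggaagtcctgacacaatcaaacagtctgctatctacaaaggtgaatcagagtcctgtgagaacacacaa
Ms4a6c: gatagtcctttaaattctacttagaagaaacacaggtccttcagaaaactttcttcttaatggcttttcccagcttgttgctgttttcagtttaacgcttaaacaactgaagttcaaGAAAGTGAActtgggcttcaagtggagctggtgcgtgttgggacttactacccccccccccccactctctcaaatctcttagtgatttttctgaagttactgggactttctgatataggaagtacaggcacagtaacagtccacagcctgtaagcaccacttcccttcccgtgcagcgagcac
Ms4a6b: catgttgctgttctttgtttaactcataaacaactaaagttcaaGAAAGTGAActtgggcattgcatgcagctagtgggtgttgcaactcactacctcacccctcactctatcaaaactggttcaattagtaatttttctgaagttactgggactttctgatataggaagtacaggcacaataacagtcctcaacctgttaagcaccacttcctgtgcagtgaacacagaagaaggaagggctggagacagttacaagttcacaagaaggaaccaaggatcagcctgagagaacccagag
The letters were present in 2 of the 4 windows, those of Ms4a6c and Ms4a6b, 133 and 206 bases before the start, as GAAAGTGAA in both. They were not in the windows of Ms4a4c and Ms4a4b. They were present in 8.56% of all 32851 promoters of that length and in a promoter of 8 of 11 interferon response genes found in the table. A match of letters is a description of the sequence, and no match says only that the letters are not in this window. The windows of Ms4a4c and Ms4a6b lie inside the GENCODE gene spans given above, which begin at chr19:11404770 and chr19:11516512. The bases around those 2 GENCODE starts were not searched.

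The droplets with Lyz2 had more Ms4a6c in the neonatal library. The 14 neonatal droplets with Cd79a and at least 3 Lyz2 UMIs all held Ms4a6c, at 336 CPM (269 to 416), and 3 of them held 4 Ms4a6d UMIs, more than all 2045 B cells together. The 18 with 1 Lyz2 UMI held 10.6 CPM of Ms4a6c, close to the B cells. The 4 adult droplets with at least 3 Lyz2 UMIs held 67.1 CPM of Ms4a6c, 44.7 CPM of Ms4a7 and 0 UMIs of Ms4a6d. Setting these droplets apart thus bore on the comparison of the ages: with them kept, the log2 ratio of Ms4a6c was 1.74 in place of 2.26.

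Ms4a4b and Ms4a6b were high in droplets with T cell genes. The 12 neonatal and 25 adult B cells with at least 2 T cell UMIs as sequenced held 8.84% and 17.0% of all Ms4a4b UMIs and 5.99% and 7.47% of all Ms4a6b UMIs, but 0.298% and 0.911% of the Ms4a4c UMIs. They also held 2 of the 3 neonatal and 3 of the 9 adult Ms4a6d UMIs. In the other cells Ms4a4b stood at 23.1 and 25.8 CPM, closer together than in all cells. Without these droplets Ms4a6b stood at 17.1 and 24.5 CPM and Ms4a6c at 11.5 and 54.7 CPM. Whether the droplets held a B and a T cell together was not tested.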

How the data were processed

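Unfiltered UMI count matrices of both libraries were used as deposited. The authors made these counts with Cell Ranger on the mouse genome mm10, and per the file headers the version was 3.0.2. The deposited counts carry no normalization. Library totals over all barcodes were 26866958 neonatal and 49500780 adult UMIs.

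Droplets were selected as the report states, in Python 3.11.15 with numpy 2.4.6, pandas 2.3.3 and scipy 1.17.1. Levels were summed UMIs as CPM, and shares and splits used cells thinned at random to 2000 UMIs. A gene was called at a 2-fold difference among genes with at least 50 UMIs over both groups. With 1 library per age no test was possible, so Poisson, binomial and conditional binomial limits are given, which are exact at 95% and cover counting error only. No doublet caller was run. The sorter gated doublets before the cells were placed in droplets, so droplets that caught several cells can remain. An alternative left out the largest droplets.

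The members and gene lists were chosen with earlier results of these data known. All 6 members are named, with list genes that met the 2-fold rule or bear on a member, and the 3 genes most like each member over states. Sequences came from GENCODE M21 transcripts and RefSeq promoters (biopython 1.88), and the figures from matplotlib 3.10.9. Alternatives covered the droplet filters, thinning, the marker threshold and ranges of depth. The antibody counts were not used, as each antibody had at most 2 UMIs in a library. Some items are not reported here.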

Additional observations from a re-analysis of the deposited data

Results flagged for a closer look

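Droplets with at least 2000 UMIs but no Cd79a UMI lay outside the comparisons, and 4 members were seen there above the level that near-empty droplets would give. The 14 neonatal droplets held 58 Ms4a4b UMIs, 22 Ms4a6b UMIs, 21 Ms4a6c UMIs and 4 Ms4a4c UMIs. The 4 adult droplets held 24 Ms4a4b UMIs and 10 Ms4a6b UMIs. The 3 neonatal and 4 adult droplets of these with at least 2 T cell UMIs held 2009 and 860 CPM of Ms4a4b and 589 and 358 CPM of Ms4a6b. The 5 neonatal droplets with at least 3 Lyz2 UMIs held all 21 of the Ms4a6c UMIs, at 470 CPM (291 to 719).

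Ms4a1 differed in opposite directions between cells with and without a B1 gene, with a log2 ratio of -0.095 in neonatal and 0.126 in adult cells. The neonatal value was 0.18 for Bhlhe41 alone and 0.14 in cells of 2000 to under 5000 UMIs, and over the alternatives it ran from -1.28 to 0.14. The difference between the libraries was not tested, since each age was 1 library.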

How the results depend on the processing

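Of the 6 members, 1 was at least 2-fold higher in the adult library under 17 of 18 alternatives, and 0 were in cells of 5000 to under 10000 UMIs, where Ms4a6c stood at 0.98. In cells of 2000 to under 5000 UMIs the member counted was Ms4a4c (1.20) and not Ms4a6c (0.22), and over all alternatives the Ms4a6c log2 ratio ran from 0.22 to 2.82. The count of 1 for adult cells with a B1 gene became 0 in cells of 2000 to under 5000 UMIs, and the adult Ms4a6c ratio there ran from 0.49 to 2.88. The count of 2 for adult cells with an interferon gene became 1 at a mitochondrial limit of 5% and 3, with Ms4a6b, with cells split at 2 UMIs. The neonatal count of 2, from 29 cells, became 0 with a minimum of 1000 UMIs and in cells of 2000 to under 5000 UMIs, 1 with no Cd79a required, without droplets above 2 times the median depth, without shared barcodes, without droplets with an Xist UMI and with thinned UMIs, and 4 with Lyz2-positive droplets kept. As sequenced, 5 shares in place of 3 were higher in the adult library. The neonatal Ms4a4b ratio for B1 genes turned from -1.08 to 0.23 at a mitochondrial limit of 5%, 0.14 with thinned UMIs and 0.19 in cells of 5000 to under 10000 UMIs, and that for interferon genes from 1.20 to -0.47 in cells of 2000 to under 5000 UMIs. The causes were not tested. The ranges of depth and the removal of the cell with most UMIs of a member were added after the data had been seen. At a limit of 5% the neonatal interferon comparison was not run, because no cells were left in the group. No paired analysis was possible because each age was 1 library. Counting error limits Ms4a6d most, at 3 and 9 UMIs.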

Other observations

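Among droplets with Cd79a, no Lyz2 and over 10% mitochondrial UMIs, which the report leaves out, 394 neonatal and 489 adult droplets held 16.7 and 35.3 CPM of Ms4a6c and 1069 and 1060 CPM of Ms4a1.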
